A study of Cocos nucifera with 22 samples.

Results

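Leaves of 2 coconut varieties, Hainan Tall and an Aromatic dwarf, were compared after 10 days of salt in 4 of the 22 RNA-seq libraries of the series. The 4 were taken by their labels, which give 10 days for 2 libraries of Hainan Tall (hereafter tall) and 2 of Aromatic Coconut (dwarf). Both groups were leaves of greenhouse seedlings irrigated every week with MS medium holding 200 mM NaCl, so that a second irrigation fell between the sampling at 6 days and that at 10 days. The other libraries, 3 for each variety at 0 h, 4 h and 6 days, served to estimate the spread and to place the 10-day difference in time. No leaf went 10 days without salt, so a difference between the varieties at 10 days holds whatever differed between them before salt. Within a variety, the same replicate number stands, by the study's methods, for the same leaf position and seedling over time, whereas across varieties the numbers belong to different plants. The gene models to which reads were assigned are those of Hainan Tall, and the part that mismatches in dwarf reads played in the levels was not tested.

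Salt reaches a leaf first as a shortage of water and then as sodium. Plants answer the first largely through abscisic acid (ABA), which closes stomata and turns on genes for protective proteins, and the second through ion transport that keeps sodium out of the cytoplasm or away from the shoot, including the salt overly sensitive (SOS) pathway. Both slow growth and carbon fixation and bring reactive oxygen species (ROS), against which superoxide dismutases and peroxidases act. Heat shock proteins hold other proteins in a folded state under many stresses.

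The depth was close to even over the 4 libraries. The tall libraries held 3242162 and 3172263 expected counts, against 3120851 and 3230765 in the dwarf libraries. They listed 21480 and 21606 genes in tall leaves and 21136 and 21441 in dwarf leaves. Replicates differed by more than counting noise, with a chi-square per gene of 6.465 between the tall libraries and 5.501 between the dwarf libraries, so none was a library deposited again. All 4 came from the same flow cell, AW. The first principal component of the 4 libraries held 49.3% of the variance and placed both tall libraries at one end and both dwarf libraries at the other, and the second, with 26.6%, separated replicates within a variety.

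Few genes could be told apart between the varieties at 10 days. Of 18840 genes tested, 14 were called (0.0743%), 12 higher in tall leaves (0.0637%) and 2 lower (0.0106%), at an adjusted p under 0.05 in edgeR's quasi-likelihood test, which took its spread from all 22 libraries. At an unadjusted p under 0.05, 1337 genes were higher in tall (7.1%) and 1007 were lower (5.35%). How many genes passed rested on which libraries set the spread and on the test used. A fit of the 4 libraries alone called 281 of 16157 (1.74%), 188 higher (1.16%) and 93 lower (0.576%), and 13 of the 14 genes were among them. The common coefficient of biological variation was 18.0% in that fit, with 2 residual degrees of freedom, and 24.0% over the 22 libraries, with 13. DESeq2 on the 22 libraries called 158 higher (1.12%) and 75 lower (0.533%) of 14064 genes with an adjusted p, 1.66% in all, the 14 included. Leaving out tall replicate 1 or either dwarf library left 1 call and leaving out tall replicate 2 left 0, where the lone library of a variety is assumed to vary like the other groups.

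**Figure D1:**
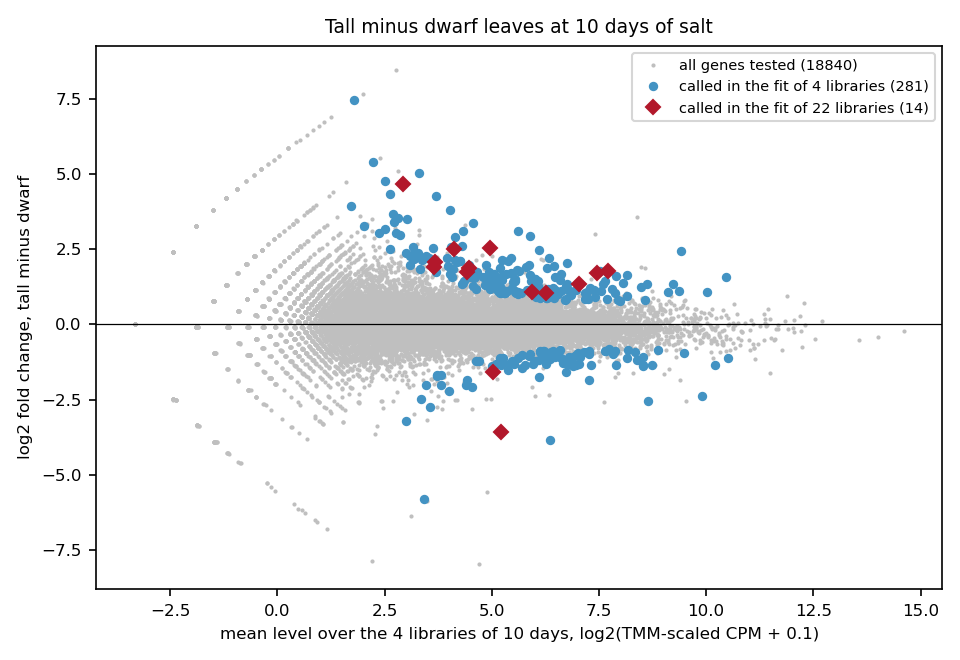
Each point is 1 of the 18840 genes tested, by its mean level over the 4 libraries of 10 days (x, log2 of TMM-scaled CPM plus 0.1) and its log2 fold change, tall minus dwarf (y). Red diamonds are the 14 genes called in the fit of 22 libraries, 12 of them above 0, and blue circles the 281 called in the fit of the 4 libraries.

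The 14 called genes were apart in every library: in each of them both tall libraries lay on one side of both dwarf libraries. Over all genes tested, tall lay above dwarf in this way for 23.5% and below for 23.7%, on TMM-scaled CPM (counts scaled by effective library size). Adjusted p-values ran from 0.0023 to 0.0498, and 11 of the 14 were above 0.04, close to the threshold. Only 2 of the 14 had a name or a pathway in the part of the study's table of selected genes used here. The other genes may be named in the rest of it.

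The first was CN01_07G002350, a subtilisin-like protease SBT1.6 on chromosome 7 (6191985 to 6195002 in assembly ASM812446v1). Subtilisin-like proteases of this class are secreted serine proteases that cut proteins in the cell wall space. It stood at 69.2 and 75.1 FPKM (fragments scaled by coding length and by library size) in the tall libraries, against 27.9 and 25.4 FPKM in the dwarf libraries. On the log2 scale tall exceeded dwarf by 1.35 (SE 0.24, edgeR adjusted p = 0.0477). Its difference before salt was 0.95 (SE 0.20, edgeR adjusted p = 0.0418), so it was called at 0 h as well, while at 4 h it was 0.22 and at 6 days 0.01, neither called.

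The second was CN01_02G011600 on chromosome 2 (47483141 to 47504105), named a conserved hypothetical protein and placed by the study's table among the basic leucine zipper (bZIP) factors of the ABA pathway. In Arabidopsis, bZIP proteins of the ABF group bind ABA response elements, but the table does not say that this gene belongs to that group. It measured 187.8 and 233.9 FPKM in tall leaves and 58.0 and 58.9 FPKM in dwarf leaves. The difference was 1.77 (SE 0.31, edgeR adjusted p = 0.0477), against 0.70 at 0 h, 0.77 at 4 h and 0.30 at 6 days, none of which passed. The table was selected by the study on these tall libraries, so membership in it is not independent evidence.

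The remaining 12 called genes have no product name in the sources used here, and 4 of them are given by identifier, all but the first chosen after their values were seen. COCehwD017692.1, which the rule for named genes picks, had 48 and 38 expected counts in tall leaves and 1 and 2 in dwarf leaves. The ratio of summed counts, scaled by library totals, was 28.4, with an exact 95% counting interval of 9.39 to 140.3. Its dwarf counts were 9 to 42 at 0 h, 22 to 23 at 4 h and 4 to 22 at 6 days, so the gene was read in dwarf leaves at the other times. With the leaf as a random block its adjusted p was 0.190 (limma-voom), so that fit did not call it.

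COCehwD024399.1 was the most abundant of the 14, with 429.1 and 399.5 FPKM in tall leaves and 108.8 and 130.5 in dwarf leaves (log2 1.71, SE 0.30, edgeR adjusted p = 0.0477). Only 2 called genes were lower in tall, both without a name. COCehwD026503.1 had the smallest adjusted p of all genes, with 2.23 and 2.28 FPKM in tall leaves and 21.8 and 29.2 FPKM in dwarf leaves. Its difference was -3.57 (SE 0.42, edgeR adjusted p = 0.00231), and 0 h also gave a call, at -5.21 (SE 0.49, edgeR adjusted p = 7.93e-05). At 6 days the gene was called with -2.58 (SE 0.33, edgeR adjusted p = 0.0082), whereas at 4 h it was at -0.55 (SE 0.50) with no call. COCehwD027858.1 stood at 11.4 and 8.72 FPKM in tall leaves and 25.97 and 30.79 FPKM in dwarf leaves (log2 -1.57, SE 0.29, edgeR adjusted p = 0.0477), and it too was not called with the leaf as a random block (limma-voom adjusted p = 0.0687).

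**Figure D2:**
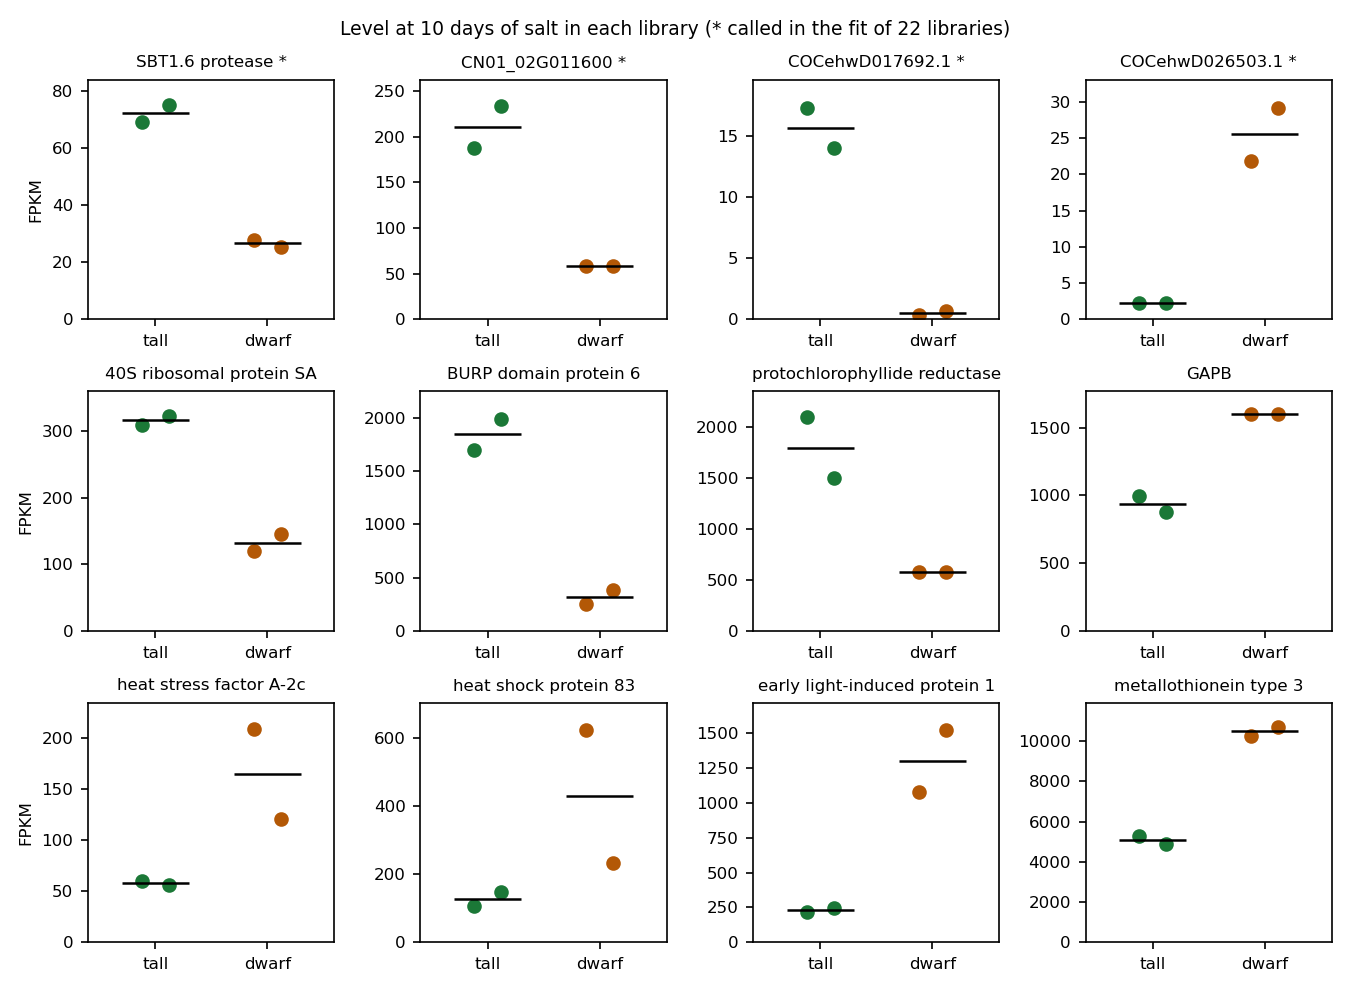
FPKM of 12 genes in each library of 10 days (y, from 0), tall at the left in green and dwarf at the right in brown, 2 libraries each, with the mean as a line. Asterisks mark genes called in the fit of 22 libraries, and heat shock protein 83 shows the widest gap between the dwarf libraries, at 625.1 and 232.0 FPKM.

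A product name was at hand for 738 genes, all tested, of which the fit of 22 libraries called the 2 above. The fit of the 4 libraries tested 732 of them and called 44 higher and 15 lower in tall. Over all genes that fit called 1.16% higher and 0.576% lower, smaller shares than among named genes, and DESeq2 called 1.12% and 0.533%. The lists come from these named genes, so a list above the all-gene share need not differ from named genes as a whole. Gene lists drawn from these names are described next by how many members were called in each fit and by the median log2 fold change, which over all genes tested was 0.00 with quartiles at -0.30 and 0.34. Here the fit of 22 libraries and that of the 4 are edgeR's, and DESeq2 on the 22 libraries is named apart. In whole leaves, fewer cells of a type and less RNA per cell cannot be told apart.

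Genes of the cytosolic translation machinery lay mostly on the tall side. Of 43 ribosomal proteins and elongation factors, none was called in edgeR's fit of 22 libraries. The fit of the 4 called 6 higher and none lower, where 1.16% of all genes and 44 of 732 named genes were higher. DESeq2 on the 22 libraries also called 6 higher and none lower, where 1.12% of all genes were. Both tall libraries lay above both dwarf libraries for 35 (81.4%) and below for none, and the median was 0.48. The 40S ribosomal protein SA (CN01_08G003030), part of the small subunit, stood at 309.6 and 322.7 FPKM in tall leaves and 120.0 and 145.5 FPKM in dwarf leaves (log2 1.17, SE 0.28, edgeR adjusted p = 0.114). The 60S ribosomal protein L9 (CN01_08G008030) of the large subunit had 75.2 and 68.9 FPKM in tall leaves and 27.2 and 33.5 FPKM in dwarf leaves (log2 1.16, SE 0.25, edgeR adjusted p = 0.109). Both tall libraries of each gene lay above both dwarf ones, and neither gene passed. The fit of the 4 libraries called them (adjusted p = 0.0319 for SA and 0.0466 for L9), along with L26-2, L21-1, S5 and the elongation factor 1-beta-like gene. The same list had medians of -0.13 at 0 h, -0.10 at 4 h and 0.18 at 6 days. Ribosomal proteins have near-identical copies among which the counting divides reads, so values of single copies are uncertain.

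Enzymes of the Calvin cycle and photorespiration lay without exception on the dwarf side. All 28 had a negative log2 fold change, against 49.9% positive over all genes, and both tall libraries lay below both dwarf libraries for 23 (82.1%) and above for none. The median was -0.53, from -0.86 to -0.03, and none of the 28 was called in either fit or by DESeq2. Chloroplast glyceraldehyde-3-phosphate dehydrogenase GAPB (CN01_07G014010), which reduces the first product of carbon fixation, had the smallest adjusted p of the list. It measured 992.5 and 881.2 FPKM in tall leaves and 1600.6 and 1597.9 FPKM in dwarf leaves (log2 -0.85, SE 0.33, edgeR adjusted p = 0.297). Before salt the median of these enzymes was -0.47, close to the value at 10 days, whereas it was 0.78 at 4 h and 0.04 at 6 days. At 4 h 1 member was called higher in tall, where 0.717% of all genes were.

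The light reactions were divided. Of 60 genes 30 had a positive and 30 a negative log2 fold change (median 0.00), tall lay above for 9 and below for 14, and none was called in the fit of 22 libraries, although 28 of them had been called higher in tall at 4 h, where 0.717% of all genes were. The fit of the 4 libraries called 1 in each direction and DESeq2 1 higher. Chlorophyll a-b binding protein 2 (CN01_03G010640), an antenna protein of the photosystems, stood at 522.2 and 360.5 FPKM in tall leaves and 167.4 and 158.6 FPKM in dwarf leaves (log2 1.36, SE 0.29, edgeR adjusted p = 0.109). Early light-induced protein 1 (CN01_scaffold013062G000030), a relative of the antenna proteins that plants make under excess light, had 220.8 and 246.2 FPKM in tall leaves and 1080 and 1522 FPKM in dwarf leaves. The gap was -2.56 with an SE of 0.96 (edgeR adjusted p = 0.281). Protochlorophyllide reductase (CN01_07G012680), the light-driven step of chlorophyll synthesis, measured 2095 and 1497 FPKM in tall leaves and 577.6 and 572.5 FPKM in dwarf leaves (log2 1.56, SE 0.44, edgeR adjusted p = 0.155).

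**Figure D3:**
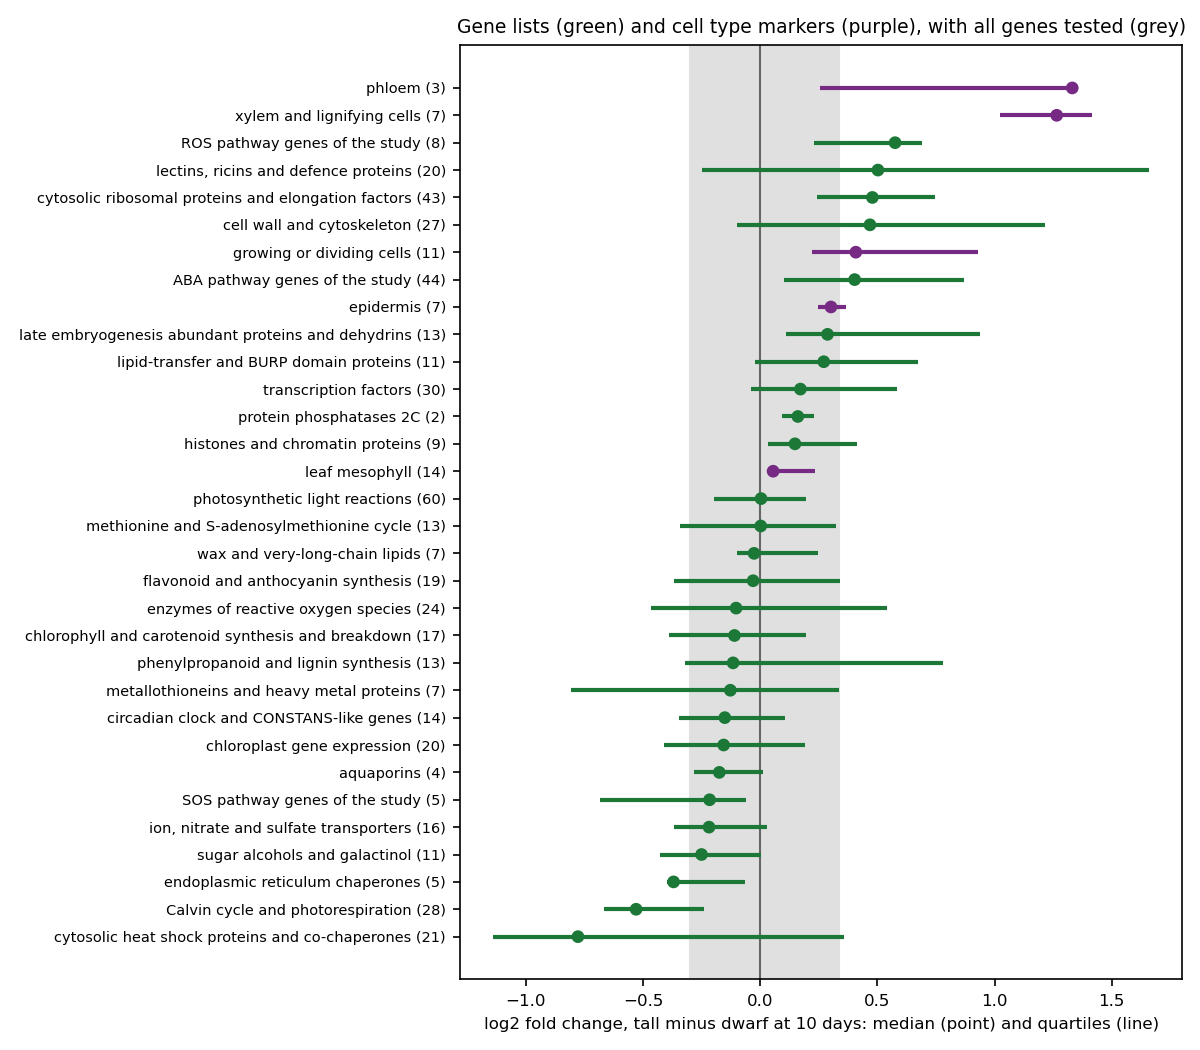
Log2 fold change, tall minus dwarf at 10 days (x), of 27 gene lists in green and 5 lists of cell type markers in purple, with the number of genes in brackets (y). Points are medians, lines run between the quartiles, and the grey band holds the quartiles of all 18840 genes around their median of 0.00. Cytosolic heat shock proteins sit lowest at -0.78 and the phloem and xylem markers highest at 1.33 and 1.26, and the phloem median, over 3 genes, turned to -0.92 when 1 library was left out.

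Cytosolic heat shock proteins and their co-chaperones were mostly at lower levels in tall leaves. Both tall libraries lay below both dwarf libraries for 14 of 21 (66.7%) and above for 5 (23.8%), and the median was -0.78. None was called in edgeR's fit of 22 libraries. The fit of the 4 called 2 lower and none higher, where 0.576% of all genes and 15 of 732 named genes were lower. The 2 were the 17.3 kDa class II heat shock protein and heat stress transcription factor A-2c. The factor is held in this list and in that of transcription factors. DESeq2 on the 22 libraries called 8 lower and none higher, where 0.533% of all genes were lower. Heat stress transcription factor A-2c (CN01_03G001480), of the family that switches these genes on, had 60.6 and 55.9 FPKM in tall leaves and 209.5 and 120.9 FPKM in dwarf leaves (log2 -1.59, SE 0.36, edgeR adjusted p = 0.109). Heat shock protein 83 (CN01_09G002610), of the HSP90 family, stood at 106.5 and 147.8 FPKM in tall leaves and 625.1 and 232.0 FPKM in dwarf leaves (log2 -1.85, SE 0.47, edgeR adjusted p = 0.131). The dwarf libraries were far apart for both genes, and the list's median ran from -0.98 to -0.54 when single libraries were left out. Not all members followed: the 17.4 kDa class III heat shock protein (CN01_03G004950) measured 255.5 and 321.0 FPKM in tall leaves and 187.4 and 161.8 FPKM in dwarf leaves.

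The genes at hand here that the study's table assigns to the ABA pathway lay mostly on the tall side. Of 44, 1 was called higher in the fit of 22 libraries, the bZIP gene above. The fit of the 4 called 5 higher and none lower, where 1.16% of all genes and 44 of 732 named genes were higher. DESeq2 called 2 higher and none lower, where 1.12% of all genes were higher. The median was 0.40, tall lay above dwarf for 23 (52.3%) and below for 7 (15.9%). The tall lead was not confined to 10 days, with medians of 0.24 at 0 h, 0.43 at 4 h and 0.05 at 6 days. At 0 h 1 was called higher and at 4 h 4, where 0.202% and 0.717% of all genes were. BURP domain-containing protein 6 (CN01_02G003550), of a family of secreted plant proteins that includes the dehydration-responsive RD22 of Arabidopsis, measured 1704 and 1996 FPKM in tall leaves and 251.8 and 387.9 FPKM in dwarf leaves. Its difference was 2.45 with an SE of 0.72 (edgeR adjusted p = 0.176), and its means at 0 h were 9252 ± 4521 FPKM in tall and 4590 ± 1184 FPKM in dwarf leaves (SD, n = 3 each). The regulatory subunit beta-1 of SNF1-related protein kinase (CN01_04G005900), whose complex signals low energy, had 141.9 and 156.3 FPKM in tall leaves and 37.2 and 61.4 FPKM in dwarf leaves (log2 1.52, SE 0.44, edgeR adjusted p = 0.172). In the list of 13 late embryogenesis abundant proteins and dehydrins, groups made when cells lose water, 10 had a positive log2 fold change (median 0.29, or 0.19 without dwarf replicate 1). The fit of the 4 libraries called 1, higher, where 1.16% of all genes were. The called gene carries the name NDR1/HIN1-like protein 1 (CN01_15G001100), not that of either group. The tall lead of this list was larger before salt, with a median of 0.48 and 2 called higher at 0 h (0.202% of all genes). Its median was 0.19 at 4 h, with 1 called higher (0.717% of all genes), and -0.01 at 6 days. Lea5 (CN01_scaffold014710G000030) was at 909.6 and 1436 FPKM in tall leaves and 534.6 and 621.4 FPKM in dwarf leaves (log2 0.94, SE 0.28, edgeR adjusted p = 0.176).

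Of the genes the study assigned to the ROS and SOS pathways, 8 and 5 were at hand here. The study's summary counts more in both pathways, and the rest are not covered by these lists. None of those at hand was called in the fit of 22 libraries or by DESeq2. The fit of the 4 called 1 ROS gene higher, where 1.16% of all genes were. Of 8 ROS genes 7 had a positive log2 fold change, and their median of 0.58 was 0.29 without tall replicate 2 and 0.82 without tall replicate 1. L-ascorbate peroxidase 3 (CN01_09G004370), which removes hydrogen peroxide with ascorbate, stood at 705.4 and 938.9 FPKM in tall leaves and 513.1 and 388.3 FPKM in dwarf leaves (log2 0.78, SE 0.24, edgeR adjusted p = 0.192). A wider list of 24 enzymes that make or remove such species had a median of -0.10, or -0.02 on log2(FPKM + 1). The gene called in the fit of the 4 libraries belongs to both lists, peroxidase 73 (CN01_05G002900), with 85.8 and 75.7 FPKM in tall leaves and 35.7 and 40.2 FPKM in dwarf leaves. Of the 5 SOS genes, 1 had a positive log2 fold change. Their median of -0.22 was -0.12 without tall replicate 2, -0.13 without dwarf replicate 1 and -0.33 without tall replicate 1. The vacuolar cation/proton exchanger 1a (CN01_11G000630), which loads cations into the vacuole, measured 179.7 and 378.1 FPKM in tall leaves and 395.7 and 709.5 FPKM in dwarf leaves. Both tall libraries lay below both dwarf ones, the nearest by little, and the difference was -1.07 with an SE of 0.77 (edgeR adjusted p = 0.596).

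The study's text on salt names 4 genes, and none of them passed at 10 days. Metallothionein-like protein type 3 (CN01_14G002700), a small metal-binding protein and one of the most abundant transcripts, had 5302 and 4886 FPKM in tall leaves and 10260 and 10723 FPKM in dwarf leaves. The libraries did not overlap, but its difference of -1.12 had an SE of 0.79 (edgeR adjusted p = 0.582). Its spread between replicates at 6 days was wide, with means of 4417.9 ± 2918.9 FPKM in tall leaves and 8289.6 ± 7484.8 FPKM in dwarf leaves there (SD, n = 3 each). In the fit of the 4 libraries its adjusted p was 0.0383. The potassium channel AKT2 (CN01_01G020060), which moves potassium in the phloem, stood at 431.1 and 530.8 FPKM in tall leaves and 781.1 and 673.0 FPKM in dwarf leaves (log2 -0.68, SE 0.51, edgeR adjusted p = 0.613).

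Chloroplast Cu-Zn superoxide dismutase (CN01_08G010630), which turns superoxide into hydrogen peroxide, averaged 484.4 ± 7.21 FPKM in tall leaves and 403.5 ± 44.1 FPKM in dwarf leaves at 10 days (SD, n = 2 each), a log2 difference of 0.18 (SE 0.21, edgeR adjusted p = 0.761). Protein phosphatase 2C 53 (CN01_14G000430), of a family that holds back ABA signalling, measured 84.6 and 112.5 FPKM in tall leaves and 74.5 and 76.6 FPKM in dwarf leaves (log2 0.30, SE 0.35, edgeR adjusted p = 0.772). Its variety difference was 1.23 at 0 h, 1.52 at 4 h (edgeR adjusted p = 0.0324) and 0.48 at 6 days, so of these times it was called at 4 h. The 7 metallothioneins and heavy metal proteins were divided, with 3 positive and 4 negative log2 fold changes. Metallothionein type 2 (CN01_16G007930) had 629.6 and 731.6 FPKM in tall leaves and 254.5 and 253.2 FPKM in dwarf leaves (log2 1.34, edgeR adjusted p = 0.183, and 0.0255 in the fit of the 4 libraries).

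Cell wall genes included some of the widest gaps among named genes. Of 27 genes of the cell wall and cytoskeleton 19 had a positive log2 fold change, with a median of 0.47. The fit of the 4 libraries called 4 higher and 1 lower, where 1.16% of all genes were higher and 0.576% lower. The fit of 22 called none and DESeq2 1 higher, where 1.12% of all genes were. Expansin-A2 (CN01_16G005760), which loosens walls of growing cells, stood at 208.8 and 215.2 FPKM in tall leaves and 51.7 and 46.4 FPKM in dwarf leaves (log2 2.03, SE 1.18, edgeR adjusted p = 0.496), although at 0 h the difference pointed the other way, at -3.44 with an SE of 1.07. A repetitive proline-rich cell wall protein (CN01_01G018670) had 68.6 and 49.7 FPKM in tall leaves and 6.03 and 8.64 FPKM in dwarf leaves (log2 2.93, SE 0.82, edgeR adjusted p = 0.155).

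Transcription factors and genes of nitrogen and sugar metabolism add to the named genes with wide gaps. Of 30 transcription factors 20 had a positive log2 fold change. Their median of 0.17 was 0.36 without dwarf replicate 1, 0.33 without tall replicate 2 and 0.26 without tall replicate 1. None was called in the fit of 22 libraries and 1 in each direction by DESeq2. The fit of the 4 called 2 in each direction, where 1.16% of all genes were higher and 0.576% lower. Among the lower was A-2c, also held in the heat shock list. ICE1 (CN01_15G005730), which in Arabidopsis acts in the cold response and in stomata, had 125.0 and 125.3 FPKM in tall leaves and 51.1 and 50.3 FPKM in dwarf leaves (log2 1.22, SE 0.30, edgeR adjusted p = 0.130). The homeobox gene HOX6 (CN01_07G006410) stood at 153.9 and 133.3 FPKM in tall leaves and 53.1 and 75.4 FPKM in dwarf leaves, and it had been called at 0 h (1.94, edgeR adjusted p = 0.0277). UNE10 (CN01_scaffold020783G000020), a basic helix-loop-helix factor, lay on the dwarf side, with 160.5 and 154.8 FPKM in tall leaves and 379.4 and 360.9 FPKM in dwarf leaves (log2 -1.31, SE 0.69, edgeR adjusted p = 0.448).

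Asparagine synthetase (CN01_04G003340), which stores nitrogen as asparagine, measured 12.8 and 24.9 FPKM in tall leaves and 0.43 and 2.07 FPKM in dwarf leaves (log2 3.79, SE 1.43, edgeR adjusted p = 0.283). The ACT domain protein ACR4 (CN01_15G005070) had 53.7 and 23.1 FPKM in tall leaves and 1.85 and 5.06 FPKM in dwarf leaves (log2 3.38, SE 0.93, edgeR adjusted p = 0.155). Both genes were called higher in the fit of the 4 libraries, and their tall libraries were far apart from each other. Of 11 genes of sugar alcohols and galactinol 3 had a positive and 8 a negative log2 fold change. Tall lay above dwarf for 1 (9.1%) and below for 5 (45.5%), against 23.5% and 23.7% of all genes. The fit of the 4 libraries called 1 in each direction, where 1.16% of all genes were higher and 0.576% lower. The fit of 22 and DESeq2 called none. Sucrose synthase 1 (CN01_13G001670), which cleaves sucrose and is also a phloem marker here, stood at 329.3 and 304.0 FPKM in tall leaves and 96.5 and 142.1 FPKM in dwarf leaves (log2 1.33, SE 0.66, edgeR adjusted p = 0.424). Galactinol synthase 1 (CN01_06G007090), the first step towards raffinose sugars, had 678.1 and 776.4 FPKM in tall leaves and 1479 and 1994 FPKM in dwarf leaves (log2 -1.34, SE 0.88, edgeR adjusted p = 0.553).

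Markers of xylem and of growing or dividing cells lay mostly on the tall side along with several of these lists. Epidermal log2 fold changes were mostly positive too, but their summed levels overlapped, and phloem markers were divided. The 14 mesophyll markers, chlorophyll-binding proteins among them, were at high levels in all 4 libraries, as the label leaf requires, with sums of 85235 and 67016 FPKM in tall leaves and 78241 and 73839 FPKM in dwarf leaves. The 7 markers of xylem and lignifying cells summed to 463.8 and 494.8 FPKM in tall leaves and 205.2 and 231.7 FPKM in dwarf leaves, with 7 of 7 log2 fold changes positive, a median of 1.26 and no call in either fit or by DESeq2. The 11 markers of growing or dividing cells summed to 2588.1 and 2350.1 FPKM in tall leaves and 1734.7 and 1600.6 FPKM in dwarf leaves (9 of 11 positive, median 0.41, or 0.65 without dwarf replicate 1 and without tall replicate 2). None of the 11 was called in the fit of 22 libraries, and they share expansins with the cell wall list. The fit of the 4 called 3 of them higher, where 1.16% of all genes were, and DESeq2 1, where 1.12% were. Epidermal markers, 7 in all with 6 positive log2 fold changes, summed to 2951 and 4203 FPKM in tall leaves and 3083 and 2225 FPKM in dwarf leaves, with overlap. Their median of 0.30 ran from -0.09 to 0.61 over the alternatives. Of the 3 phloem markers tall lay above dwarf for 1 and below for 1, against 23.5% and 23.7% of all genes. Their median of 1.33 ran from -0.92 to 1.40. No marker was at 0 in any of the 4 libraries, and the part of cell makeup in the differences above was not tested.

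**Figure D4:**
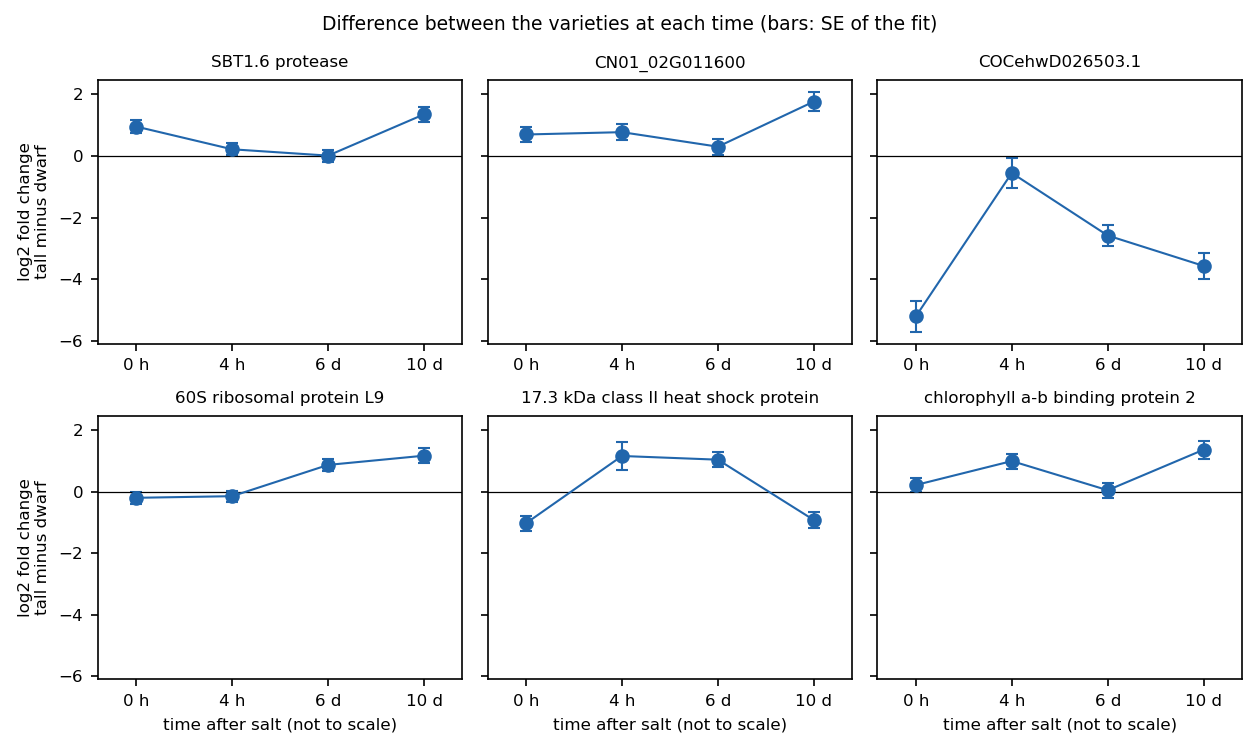
Log2 fold change between the varieties, tall minus dwarf (y), for 6 genes at the 4 sampling times in their order (x, not to scale), with bars of 1 SE from the fit of 22 libraries. COCehwD026503.1 was below 0 at each time, SBT1.6 was at 0.95 at 0 h and 1.35 at 10 days, and the 17.3 kDa class II heat shock protein stood at -1.03 at 0 h, 1.15 at 4 h, 1.03 at 6 days and -0.93 at 10 days.

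Whether the varieties differed in another way at 10 days than before salt was asked by testing the difference of differences. Of 18840 genes none passed (0%) in edgeR, 1381 had an unadjusted p under 0.05 (7.33%), the smallest adjusted p was 0.533, and DESeq2 called 2, neither with a product name. All dwarf libraries of 0 h were on the other flow cell, so this contrast leans on a flow cell term estimated from other groups. By the named-gene rule the closest were led by the ribosomal protein L9, whose variety difference at 10 days minus that at 0 h was 1.37 (SE 0.32, edgeR adjusted p = 0.555), with means of 98.7 ± 9.0 FPKM in tall and 109.9 ± 10.7 FPKM in dwarf leaves at 0 h (SD, n = 3 each). Next were 60S ribosomal protein L37a (CN01_06G005180; 1.07, SE 0.25), the MADS-box protein JOINTLESS (CN01_scaffold004940G000010; 1.66, SE 0.42), tubulin beta-1 chain (CN01_01G016440; 1.86, SE 0.51) and NAP1-related protein 2 (CN01_13G002330; 1.22, SE 0.34), a histone chaperone. Leucoanthocyanidin reductase (CN01_03G010020), an enzyme of proanthocyanidin synthesis, pointed the other way (-1.55, SE 0.43). It was at 393.2 and 911.3 FPKM in tall leaves and 1474 and 1207 FPKM in dwarf leaves at 10 days.

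Against 6 days, the last sampling before the second irrigation, none of the 18840 genes passed (0%) in edgeR either, with 1460 at an unadjusted p under 0.05 (7.75%) and a smallest adjusted p of 0.573. DESeq2 called 1, the 17.3 kDa class II heat shock protein (CN01_scaffold007600G000070), which leads the edgeR ranking of named genes too. It stood at 506.0 and 496.7 FPKM in tall leaves and 930.3 and 867.4 FPKM in dwarf leaves at 10 days, whereas at 6 days the means were 328.2 ± 38.6 FPKM in tall leaves and 171.9 ± 33.4 FPKM in dwarf leaves (SD, n = 3 each). The difference of differences was -1.96 (SE 0.36, edgeR adjusted p = 0.573, DESeq2 adjusted p = 0.0304). The change in the variety difference of this small heat shock protein between 6 and 10 days was thus called by DESeq2. In edgeR that change was several times its SE but did not pass after adjustment over 18840 genes. Neither test asks whether the order of the varieties was reversed. At 10 days alone the edgeR adjusted p in the fit of 22 libraries was 0.177.

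The other named genes closest to a call against 6 days were SBT1.6 (1.34, SE 0.31), a dormancy-associated protein (CN01_contig69359625G000010; 1.63, SE 0.38), NADH-dependent glutamate synthase 1 (CN01_scaffold000561G000020; 1.51, SE 0.40), a DnaJ protein (CN01_scaffold000873G000020; -1.18, SE 0.32) and chlorophyll a-b binding protein 2 (1.32, SE 0.37). Glutamate synthase, which makes glutamate in nitrogen assimilation, had 65.0 and 57.9 FPKM in tall leaves and 20.8 and 16.6 FPKM in dwarf leaves at 10 days, just outside the threshold there (log2 1.63, SE 0.31, edgeR adjusted p = 0.0591). At 0 h it had been called (1.31, SE 0.25, edgeR adjusted p = 0.0372).

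Few of the 14 genes called at 10 days were also called at another time, though a gene missing from a list need not differ between times. Of the 14 genes called at 10 days, 3 (21.4%) were also among the 77 called at 0 h (0.409% of all genes, 38 higher at 0.202% and 39 lower at 0.207%), of which they made 3.90%. None was among the 199 called at 4 h (1.06%, with 135 higher and 64 lower, the last at 0.34%). At 6 days 2 of the 14 were among the 5 called (0.0265%, with 4 higher at 0.0212% and 1 lower at 0.00531%). All 14 had the same sign at 0 h and at 6 days, and 11 had it at 4 h. The libraries of different times are distinct but come from the same plants and share the fit's spread. A gene at 30 or more counts in both libraries of one variety and at most 3 counts in both of the other together was rare, with 3 such genes in tall leaves and 1 in dwarf leaves, none with a product name.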

How the data were processed

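The authors made oligo(dT) RNA-seq libraries of single-end reads, mapped them with Bowtie and BWA and counted with RSEM (versions not given in the sources used here). Their deposited tables hold expected counts and FPKM per gene, the latter scaled by coding length (all lengths are multiples of 3). Genes missing from a table were set to 0. After rounding, expected counts were fitted with edgeR 4.0.16 (R 4.3.3): TMM, filterByExpr over 8 groups, a quasi-likelihood test with group and flow cell over all 22 libraries, Benjamini-Hochberg over 18840 genes, called under 0.05. SE is the log2 fold change over the square root of F. The counting interval covers counting error only. DESeq2 1.42.0 and limma 3.58.1 served as alternatives, and the script was checked on simulated data.

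Product names came from the study's table of selected genes (738 used here, not the whole table) and coordinates from RefSeq locus tags of ASM812446v1. Members and lists were chosen with earlier results of these data known. Named genes were the 12 highest and 12 lowest called with a product name and at least 10 FPKM, up to 4 called per list, 4 genes of the study's text, up to 2 unnamed near-absent genes per direction and up to 6 per difference test. Genes called in the fit of the 4 libraries, and single members named to show a list's lead or exception, were added after values were seen. Replicates are separate seedlings by the study's methods, which also give the same number in a variety to the same leaf over time. Same-numbered libraries of a variety deviated together with a mean r of 0.231 in tall and 0.099 in dwarf (15 pairs each). In dwarf r ran from -0.291 to 0.419 for the same number and from -0.429 to 0.481 for different numbers. The pairing is thus not plain in the dwarf data. Across varieties the numbers belong to different plants. The r of -0.057 at 10 days cannot test a pairing, because with 2 libraries a group the deviations are mirror images.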

Additional observations from a re-analysis of the deposited data

How the results depend on the processing

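The 14 calls at 10 days depended on the fit: 281 with only the groups compared, 233 with DESeq2, 22 when 50 counts were required in both libraries of either variety, 8 with the leaf as a random replicate block (consensus correlation 0.0649, 7 of the 14 called there) and 7 with limma on log2(FPKM + 1). The count was 11 without the flow cell, 12 with RLE size factors, 16 without a filter, 16 with limma on log2(FPKM + 0.1) and 14 with a log2 fold change of at least 1 added. Leaving out 1 library gave 0 to 1. With the replicate number as a replicate block the count was 12, 9 of the 14 among them, but across varieties the numbers belong to different plants. For the difference from 0 h, 0 calls became 2 with DESeq2, 1 with limma on log2(FPKM + 0.1) and 0 to 1 with 1 library left out (1 without tall replicate 2 of 10 days). For that from 6 days they became 1 with DESeq2 and 1 with that limma fit, and 0 with any library left out. With the leaf as a fixed replicate block, which pairs libraries of a variety over time, both stayed at 0. No named gene that was called in any fit changed sign. List medians kept their sign in every alternative for Calvin cycle enzymes (-0.57 to -0.45), ribosomal proteins (0.44 to 0.57), heat shock proteins (-0.98 to -0.54), ABA genes (0.40 to 0.53) and xylem markers (0.95 to 1.57), whereas those of the light reactions, flavonoid, phenylpropanoid, wax, methionine, pigment, endoplasmic reticulum chaperone, mesophyll, epidermis and phloem lists changed sign in at least 1. On log2(FPKM + 1) the median of all genes was 0.07 higher in tall, against 0.00 on counts.

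At 3120851 to 3242162 counts a library, genes with few counts are measured with little precision.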
